A study of Rattus norvegicus with 6 samples.

Results

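The genes described here encode the proteins that dock, prime and fuse synaptic vesicles, and their relatives in other secretory pathways. They were taken by symbol alone: every synaptotagmin (Syt and a digit), synaptotagmin-like protein (Sytl), syntaxin (Stx), syntaxin-binding protein (Stxbp), Vamp, complexin (Cplx), Rab3, Sv2, Unc13 and Rims gene, with Syn1, Syn2, Syn3, Syp, Snap23, Snap25, Snap29, Nsf, Bsn and Pclo. This gave 77 of the 12167 genes with a single annotated symbol, each read on its brightest probe over the 6 arrays. The letters Rab3 also took 9 Rab proteins outside the Rab3 subfamily (Rab30, Rab31, Rab32, Rab33a, Rab33b, Rab35, Rab36, Rab38 and Rab39a), so 68 members remain without them. A single probe was present for 54 members and several for 23. Some well-known genes of this machinery, Syt1 and Unc13a among them, were not analysed here.

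A vesicle fuses when a Vamp protein on its membrane zippers with a syntaxin and a SNAP-25 family protein on the target membrane into a SNARE complex. Syntaxin-binding and Unc13 proteins guide the assembly, Rab3 and Rims tether the vesicle at the active zone, complexins clamp and assist the complex, synaptotagmins sense calcium, and Nsf takes the spent complexes apart. Neurons use this set at synapses, pinealocytes hold synaptic ribbons and vesicles although they form few classical synapses, and ependymal and other cells use the ubiquitous relatives for ordinary membrane traffic.

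The samples came from adult male Sprague-Dawley rats without treatment. The pineal gland, the source of melatonin, was read on 2 arrays. The subcommissural organ (a secretory ependymal gland in the roof of the ventricle), the subfornical organ (a neural sensor of fluid balance), ependyma lining the third ventricle, and total brain had 1 array each. The structures were cut out by laser, the ependyma and each of the other organs were pools of 2 (the unit pooled is not stated), total brain was a pool used as reference, and 3 ng of RNA went through 2 rounds of amplification. Since separate animals are not stated for the 2 gland arrays, every p-value given here measures only the spread between those arrays, which may be technical.

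Values are deposited intensities on a linear scale with no unit, and the level of one probe cannot be set against that of another probe. The array medians lay between 1.04 and 1.07 and the pooled median was 1.05, below which a value was treated as near background. The upper part of the distribution was not level between arrays: the 75th percentile ran from 4.90 on a pineal gland array to 7.93 on total brain. Summed intensities of 7 pinealocyte markers were 1493 and 1115 in the pineal gland and between 6.25 and 9.70 elsewhere, and those of 6 motile cilia markers were 1032 in the subcommissural organ and 1149 in the ependyma against 14.8 to 264 in the other arrays. Of 13 neuron markers 9 were on the array, and their sum was 215 and 150 in the pineal gland, 67.3 in the subcommissural organ, 145 in the subfornical organ, 206 in the ependyma and 1134 in total brain. Eno2 alone made 205 and 142 of the gland sums. It made 11.6, 69.1, 78.6 and 340 of the sums in the subcommissural organ, subfornical organ, ependyma and total brain. By limma, 6 of 7 measured neuron markers were lower in the gland than in the ependyma. In a bulk sample, fewer cells of a type and less RNA per cell cannot be told apart.

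Total brain was the most frequent highest tissue, for 30 of the 57 members that had a level. Of the 77 members, 57 (74.0%) reached the pooled median on at least 1 array, against 81.9% of all genes, and 32 (41.6%) did so on all 6 arrays, against 52.0%. The other 20 members stayed under it on the probe used and give no levels here, among them Snap25, the neuronal partner of syntaxin, whose only probe read 0.491 and 0.664 in the pineal gland, 0.892, 0.748 and 0.604 in the subcommissural organ, subfornical organ and ependyma, and 0.570 even in total brain. Syn1, Pclo, Rims1, Rims2, Stx3, Stxbp2, Syt9, Rab3d and Unc13b were in the same position. Of Syn1, a second probe read 1.89 in total brain and at most 0.390 elsewhere.

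Those 30 members highest in total brain were 52.6% of the 57, against 33.9% of all genes with a level. The pineal gland was highest for 9 (15.8%), near the 13.8% of all genes. The subcommissural organ was highest for 7 (12.3%, against 20.2%) and the subfornical organ for 7 (12.3%, against 20.8%). The ependyma was highest for 4 (7.02%, against 11.3%). The lowest tissue was the subcommissural organ for 22 (38.6%, against 20.8% of all genes) and the pineal gland for 15 (26.3%, against 27.3%). A lead of at least 4-fold over each other tissue was held in total brain by Bsn, Cplx1, Stx1a, Stxbp6, Sv2a, Sytl3 and Vamp1, in the subfornical organ by Vamp5 and in the ependyma by Sytl5. The share of all genes with such a lead is not given here.

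**Figure D1:**
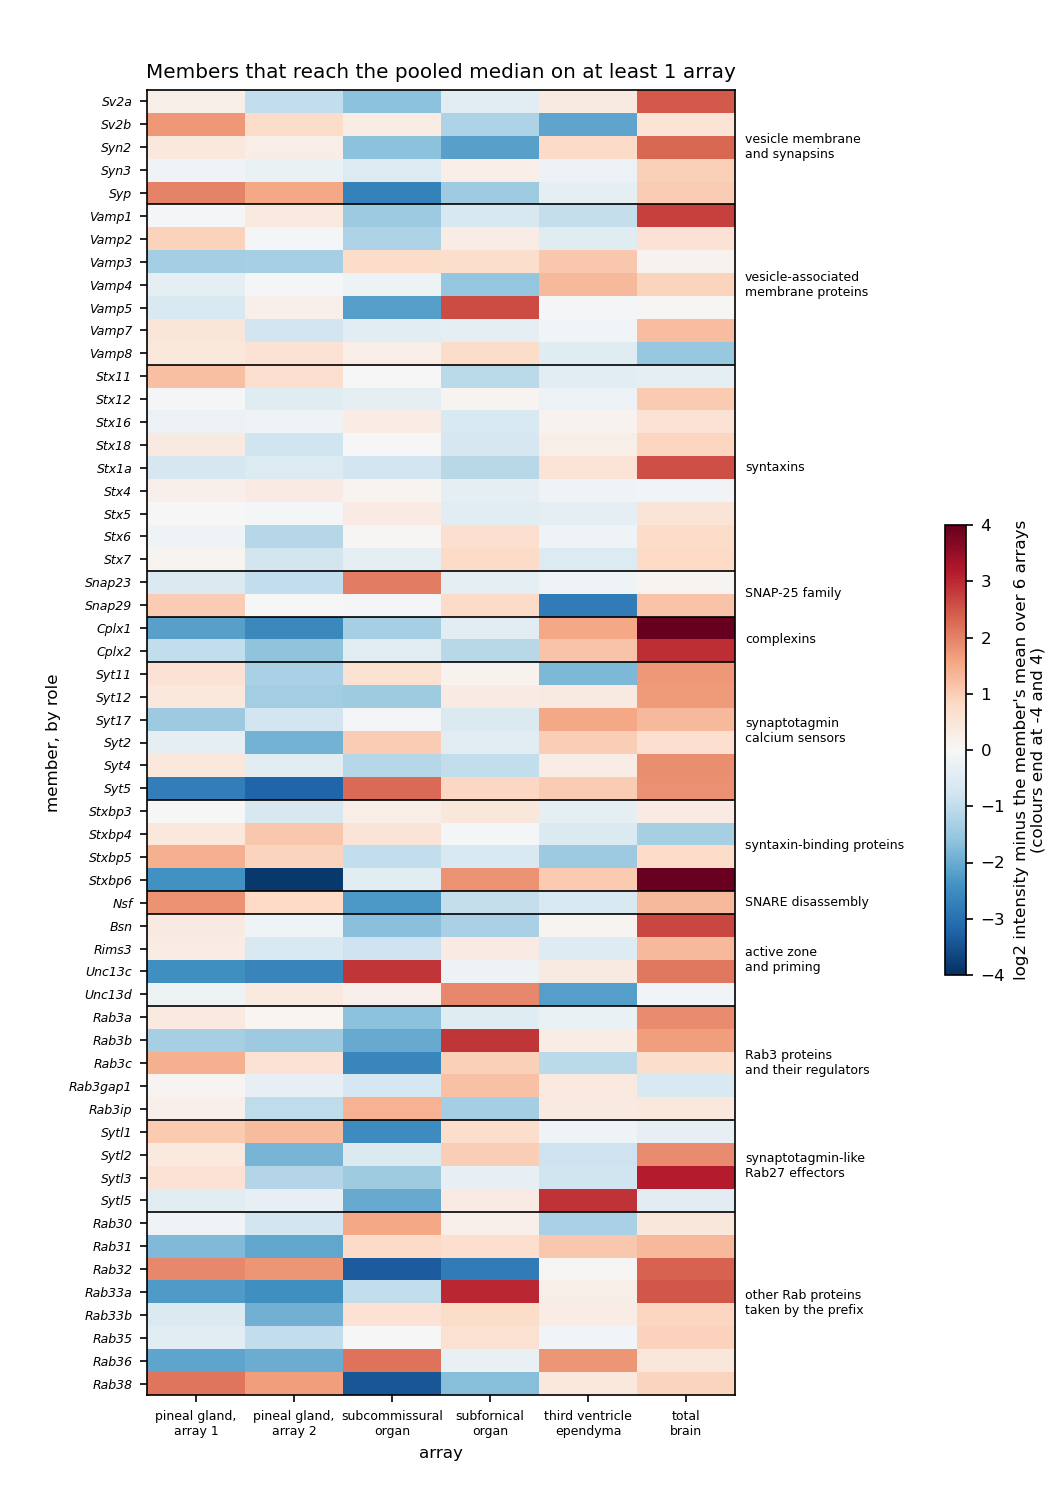
Each row is 1 of the 57 members that reached the pooled median on at least 1 array, grouped by role, and each column 1 array; colour is the log2 intensity minus that member's own mean over the 6 arrays. Red marks a value above that mean, not the highest tissue. Total brain, in the last column, was highest for 30 members, while Syp, Sv2b and Rab38 are red in both pineal gland columns.

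Proteins of the vesicle membrane divided in the pineal gland. Synaptophysin, Syp, the abundant tetraspan protein of small vesicles, read 159 and 117 in the pineal gland, 6.25 in the subcommissural organ, 15.0 in the subfornical organ, 30.9 in the ependyma and 81.3 in total brain. Both gland arrays were above all the others. Against the ependyma Syp rose 4.41-fold (log2 2.14, limma adjusted p = 0.018), and against total brain the difference was 0.74 on the log2 scale and was not called (adjusted p = 0.53). Sv2b, a vesicle glycoprotein, read 27.8 and 13.8 in the gland, 10.1 in the subcommissural organ, 3.52 in the subfornical organ, 1.93 in the ependyma and 12.2 in total brain. The gland lay highest and the ependyma lowest, a 10.2-fold rise in limma (adjusted p = 4.7e-05). Its relative Sv2a had the opposite order at the top, with 269 in total brain against 57.8 and 25.0 in the gland, 15.8 in the subcommissural organ, 36.5 in the subfornical organ and 63.9 in the ependyma. Sv2a fell 7.06-fold in the gland against total brain (limma adjusted p = 0.00081).

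The synapsins tether vesicles to the cytoskeleton and to each other. Syn2 read 1.83 and 1.63 in the pineal gland, 0.438 in the subcommissural organ, 0.303 in the subfornical organ, 2.30 in the ependyma and 6.70 in total brain, so that both organs lay under the pooled median. It fell 3.88-fold in the gland against total brain (limma adjusted p = 0.032). Syn3 was more even, at 9.25 and 8.43 in the gland, 7.02, 12.2 and 8.76 in the subcommissural organ, subfornical organ and ependyma, and 19.7 in total brain.

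RefSeq promoters of the GRCr8 build (250 bases before to 50 after the start) were matched for 62 of the 77 members. The letters CAGCACC, part of the element bound by Rest, a repressor of neuronal genes outside neurons, occurred on either strand in 10 of them (16.1%), against 6.91% of 27457 promoters: Bsn, Rab32, Rab3c, Stx18, Sv2b, Syn1, Syp, Syt15, Syt4 and Syt8. TAATCC, the core bound by Crx and Otx factors of the pineal gland and retina, occurred in 3 (4.84%, against 7.11%), which were Rab3ip, Rims3 and Unc13c. TGACGT, the core of the cAMP response element, occurred in 8 (12.9%, against 8.22%). Of the 8 matched members highest in the pineal gland, 3 held CAGCACC, namely Sv2b, Syp and Rab3c, the last with 1 gland array below other tissues, and none held TAATCC or TGACGT. Of the 26 matched members highest in total brain, 4 (15.4%) held CAGCACC, 5 (19.2%) TGACGT and 1 (3.85%) TAATCC. These are matches of letters, not sites, and no motif is contained in another. Stretches before the start site are shown for Sv2b, highest on both gland arrays, and for Bsn, highest in total brain, to set a shared match beside their different levels; they were chosen after the values were seen, and capitals mark the match or its reverse complement GGTGCTG. Both lie on the minus strand, at chr1:138562369-138562428 for Sv2b and chr8:117754413-117754471 for Bsn.
Sv2b: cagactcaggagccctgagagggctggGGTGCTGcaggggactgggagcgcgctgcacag
Bsn: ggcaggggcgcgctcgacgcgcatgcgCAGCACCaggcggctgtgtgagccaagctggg

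The vesicle SNAREs, the Vamp proteins, each had a pattern of their own. Vamp1 read 52.0 in total brain against 7.52 and 10.3 in the pineal gland, 2.89 in the subcommissural organ, 5.03 in the subfornical organ and 4.08 in the ependyma. It fell 5.91-fold in the gland against total brain (limma adjusted p = 0.0028). Vamp2, the main SNARE of synaptic vesicles, read 14.2 and 7.03 in the gland, 3.17 in the subcommissural organ, 9.15 in the subfornical organ, 5.27 in the ependyma and 11.1 in total brain. Vamp3, the ubiquitous relative of recycling endosomes, was lowest in the gland, at 58.2 and 59.7, against 247, 244 and 315 in the subcommissural organ, subfornical organ and ependyma and 164 in total brain. It fell 5.34-fold in the gland against the ependyma (limma adjusted p = 0.0058). Vamp8, a SNARE of late endosomes and of regulated secretion outside neurons, was 1 of 2 members for which total brain was the lowest tissue: it read 82.0 and 90.6 in the gland, 72.2 in the subcommissural organ, 101 in the subfornical organ, 43.3 in the ependyma and 21.1 in total brain. It rose 4.09-fold in the gland against total brain (limma adjusted p = 0.025). Vamp5, known from muscle and endothelium, stood at 35.8 in the subfornical organ alone, against 3.88 and 6.82 in the gland, 1.28 in the subcommissural organ, 5.74 in the ependyma and 6.08 in total brain. The summed level of 4 endothelial markers was 96.3 there, of which Cldn5 made 89.4, against 177 in total brain and between 20.0 and 77.9 on the other arrays. Flt1 alone was highest in the subfornical organ, at 3.63. Pecam1 read 1.65 there against 6.61 in total brain, and Emcn 1.66 against 3.52 and 3.22 in the gland. Muscle markers were not examined, and the part of either cell type in the Vamp5 values was not tested.

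On the target membrane, Stx1a, the syntaxin of the presynaptic membrane, read 76.5 in total brain against 8.05 and 8.79 in the pineal gland, 7.48 in the subcommissural organ, 5.96 in the subfornical organ and 18.6 in the ependyma. It fell 9.10-fold in the gland against total brain (limma adjusted p = 0.00011). The syntaxins of endosomes, Golgi and the general plasma membrane varied less: Stx4 read 5.53 and 5.95 in the gland and from 3.64 to 5.18 elsewhere, and Stx5 44.3 and 43.0 in the gland and from 33.1 to 62.9 elsewhere. Stx6 and Stx12 spread more than Stx4 and Stx5. Stx6 ran from 14.6 on a gland array to 53.5 in total brain, and Stx12 from 71.4 to 205 on the same arrays. Snap23, the ubiquitous relative of Snap25, was highest in the subcommissural organ, at 46.5 against 7.63 and 5.74 in the gland, 8.55 in the subfornical organ, 9.96 in the ependyma and 12.2 in total brain. Snap29, which serves endosomes and autophagosomes, read 3.50 and 1.71 in the gland, 1.61, 2.89 and 0.245 in the subcommissural organ, subfornical organ and ependyma, and 3.75 in total brain. The ependyma was the only array on which its probe was near background, and the gland was at least 2.33-fold above it. The test used the reading of 0.245 itself, not this bound (limma adjusted p = 5.3e-05).

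Both complexins on the array were called lower in the pineal gland against total brain and against the ependyma. Cplx1 read 1.17 and 0.879 in the gland, 2.12 in the subcommissural organ, 3.81 in the subfornical organ, 15.3 in the ependyma and 169 in total brain. The order ran over 5 tissues with the gland near background, and the gland was at least 160-fold below total brain (limma adjusted p = 6.4e-22) and at least 14.6-fold below the ependyma (adjusted p = 1.1e-06). Cplx2 read 3.92 and 2.57 in the gland, 5.81 in the subcommissural organ, 3.65 in the subfornical organ, 17.3 in the ependyma and 60.5 in total brain. The 3.65 of the subfornical organ lay between the gland arrays. Cplx2 fell 19.1-fold in the gland against total brain (limma adjusted p = 9.7e-08) and 5.44-fold against the ependyma (adjusted p = 0.0051).

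Of 13 synaptotagmins, 6 reached the pooled median somewhere, and Syt4 and Syt5 did so with room to spare. Syt4, which sits on dense core vesicles, read 137 in total brain, 49.9 and 27.7 in the pineal gland, 17.1 in the subcommissural organ, 18.9 in the subfornical organ and 46.0 in the ependyma. Total brain lay above all, and the gland fell 3.68-fold against it (limma adjusted p = 0.041). Syt5 was near background in the gland, at 0.928 and 0.691, and present in every other tissue, with 30.7 in the subcommissural organ, 11.2 in the subfornical organ, 12.8 in the ependyma and 22.6 in total brain. The gland was at least 21.5-fold below total brain (limma adjusted p = 9.4e-10) and at least 12.2-fold below the ependyma (adjusted p = 6.3e-07). Syt2, a fast calcium sensor of hindbrain and spinal synapses, did not exceed 1.07 on any array.

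The syntaxin-binding proteins parted in the same manner. Stxbp5, or tomosyn, which holds syntaxin back from fusion, read 48.3 and 33.4 in the pineal gland, 9.23 in the subcommissural organ, 11.9 in the subfornical organ, 6.70 in the ependyma and 30.4 in total brain. The gland lay above every other array, and it rose 5.99-fold against the ependyma (limma adjusted p = 0.0027). Stxbp6, or amisyn, another protein that competes for syntaxin, was under the median in the gland, at 0.383 and -0.0625, and read 1.51 in the subcommissural organ, 7.14 in the subfornical organ, 4.25 in the ependyma and 32.0 in total brain. On the probe used, the gland was at least 30.4-fold below total brain (limma adjusted p = 2.3e-20) and at least 4.05-fold below the ependyma (adjusted p = 1.5e-07). Both tests used the floored gland readings, not these bounds. A second Stxbp6 probe varied less, at 1.37 and 1.05 in the gland and 3.32 in total brain. It read 1.37, 1.85 and 1.80 in the subcommissural organ, subfornical organ and ependyma. Nsf, the ATPase that recycles SNARE complexes, read 98.4 and 49.2 in the gland, 5.84 in the subcommissural organ, 14.7 in the subfornical organ, 18.8 in the ependyma and 70.2 in total brain. The gland arrays lay on either side of total brain, and the gland rose 3.70-fold against the ependyma (limma adjusted p = 0.044).

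At the active zone, Bsn, the giant scaffold bassoon of synapses and ribbons, read 51.6 in total brain, 10.2 and 7.14 in the pineal gland, 2.49 in the subcommissural organ, 3.28 in the subfornical organ and 8.63 in the ependyma. It fell 6.05-fold in the gland against total brain (limma adjusted p = 0.0024), and gland and ependyma overlapped. On a second Bsn probe the gland read 2.87 and 2.75, the ependyma 1.63 and total brain 5.06. The Unc13 proteins prime vesicles. Unc13c read 6.36 in the subcommissural organ, above 3.78 in total brain and 1.13 in the ependyma, and was under the median in the subfornical organ at 0.761 and in the gland at 0.161 and 0.0165. Unc13d, which primes granules of blood and immune cells, read 13.3 in the subfornical organ, 3.06 and 4.56 in the gland, 4.08 in the subcommissural organ, 0.759 in the ependyma and 3.28 in total brain. The subfornical organ was highest and the ependyma near background. The summed level of 5 microglia markers was also highest in the subfornical organ, at 635. It was 458 in the ependyma, 394 in total brain, 210 and 207 in the gland and 74.2 in the subcommissural organ. Csf1r made 263 of the subfornical and 237 of the ependyma sum. Of these markers, Cd68 alone was also lowest in the ependyma. It read 25.8 in the subfornical organ, 10.3 and 12.4 in the gland and 5.39 in total brain. In the subcommissural organ and ependyma it read 2.06 and 0.936. The part of these markers in the Unc13d values was not tested.

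Rab3 proteins sit on secretory vesicles. Rab3a, the main form at synapses, read 46.0 in total brain, 16.0 and 13.0 in the pineal gland, 3.95 in the subcommissural organ, 8.86 in the subfornical organ and 10.3 in the ependyma. Rab3b had a different top: 105 in the subfornical organ, 46.1 in total brain, 17.8 in the ependyma, 3.59 in the subcommissural organ and 5.79 and 5.28 in the gland. It fell 8.34-fold in the gland against total brain (limma adjusted p = 0.00023). Rab3c was low everywhere, with 3.06 and 1.70 in the gland, 2.19 in the subfornical organ, 1.84 in total brain, 0.540 in the ependyma and 0.184 in the subcommissural organ. The gland was at least 2.17-fold above the ependyma. The test used the reading of 0.540 itself, not this bound (limma adjusted p = 0.022). Of the effectors of Rab27, Sytl5 reached the median in the ependyma alone, at 4.27, with -0.136 to 0.720 elsewhere, and Sytl3 in total brain alone, at 3.38. Among the Rab proteins taken by the prefix, Rab36 read 83.6 and 64.0 in the subcommissural organ and the ependyma, 15.2 in the subfornical organ, 25.4 in total brain and 4.32 and 4.68 in the gland. Rab33a followed the other circumventricular organ, with 40.7 in the subfornical organ, 28.5 in total brain, 5.89 in the ependyma, 2.53 in the subcommissural organ and 1.05 and 0.919 in the gland.

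**Figure D2:**
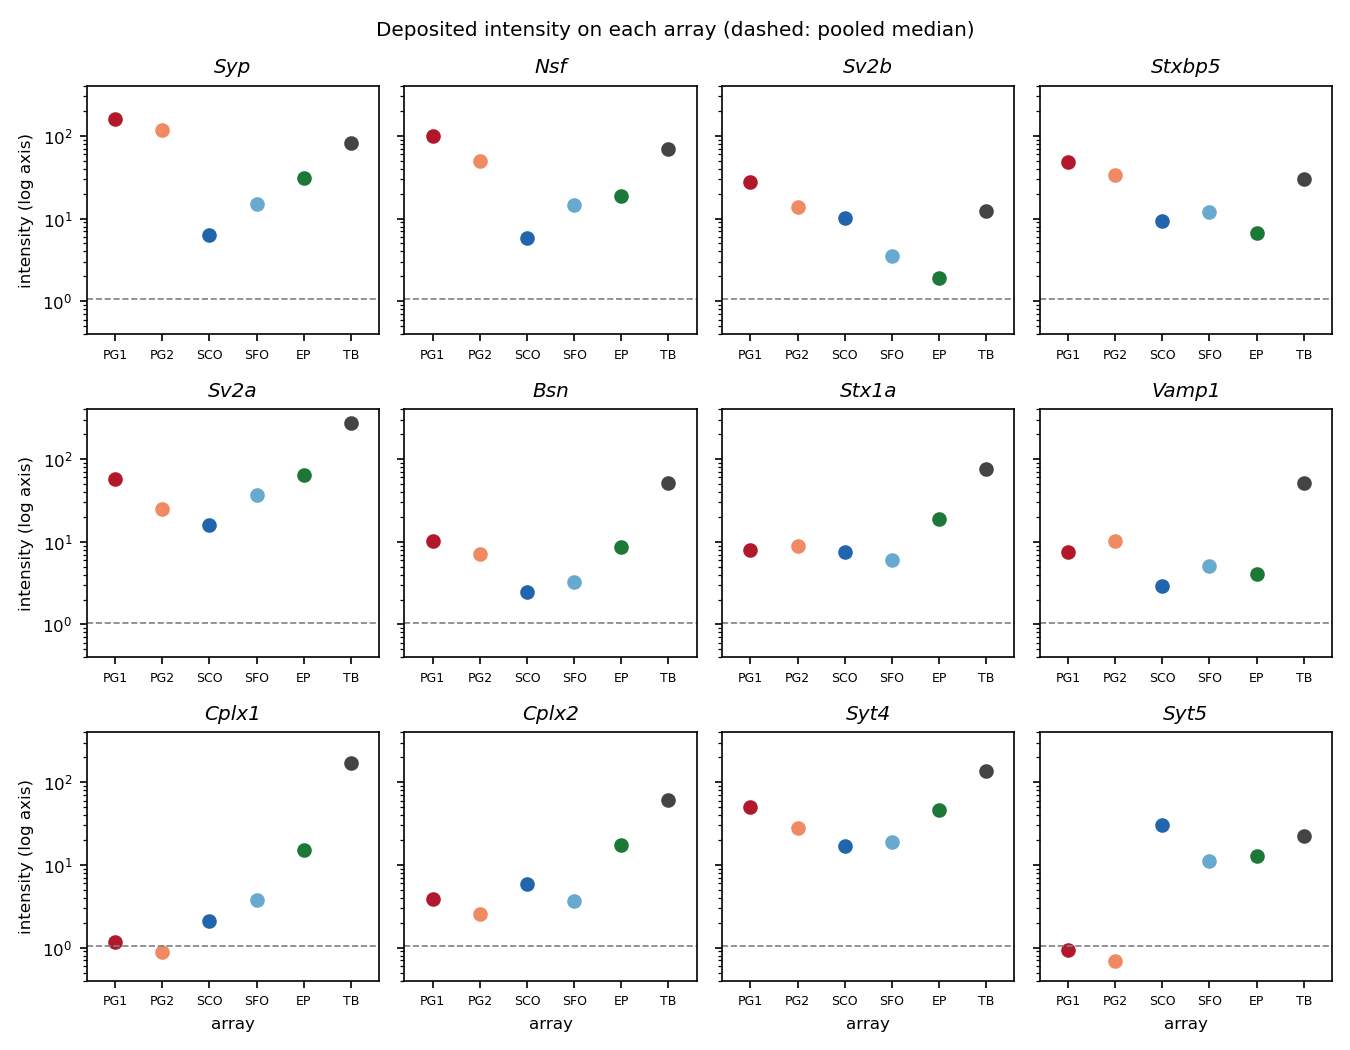
Deposited intensity on a log axis for 12 members on the 6 arrays: PG1 and PG2, the pineal gland arrays; SCO, subcommissural organ; SFO, subfornical organ; EP, ependyma; TB, total brain; the dashed line is the pooled median of 1.05. Syp and Stxbp5 are highest on both gland arrays, while Cplx1 falls from 169 in total brain to 1.17 and 0.879 in the gland; levels are compared within a panel only.

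The first comparison, gland against total brain, asks how the gland's set of these genes departs from that of brain tissue. The gland had less of the complexins, Syt5, Stxbp6, Stx1a, Rab3b, Sv2a, Bsn and Vamp1 and more of Vamp8, whereas Syp, with an adjusted p of 0.53 by limma, and Nsf, with one of 0.99 at a log2 difference of -0.01, were not called. By limma, whose standard error was 0.72 (log2) for each gene, 2 of 54 measured members rose, where 7.67% of all measured genes rose, and 21 fell, where 16.1% fell. A member counts as measured when its higher side reaches the pooled median, so these members are not all 77, and a member measured through its brain value alone could be called only lower. At the size of 4-fold the counts were 2 higher (6.71% of all genes) and 19 lower (14.2%). The 2 that rose were Vamp8 and Stxbp4, a syntaxin-binding protein first described in insulin response, at 1.24 and 1.94 against 0.367, at least 1.48-fold. The call of Stxbp4 used the reading of 0.367, not this bound. The largest falls were those of Cplx1, Stxbp6, Rab33a (at least 27.1-fold), Syt5 and Cplx2. The median log2 difference was -1.34 over the measured members and -0.45 over all measured genes, and -0.91 and -0.35 over all 77 members and all 12167 genes. With values under the pooled median set at it, the medians of the measured members were -1.09 and of all 77 members -0.24. The neuron markers moved with these differences: 6 of 7 measured ones fell and none rose, Grin1 reading 0.435 and 0.931 against 151 and Stmn2 1.01 and 0.600 against 58.1, with Eno2 the least apart at 205 and 142 against 340. Of the other brain cell types, 4 of 5 measured astrocyte markers (median log2 difference -5.66), 5 of 5 oligodendrocyte markers (-7.69) and 2 of 5 microglia markers (-0.74) fell as well and none rose, while 6 of 7 pinealocyte markers rose. Of the motile cilia markers 3 of 4 measured ones fell, and of 4 endothelial markers 1 rose and 1 fell. The part of these markers in the members' differences was not tested. Quantile normalization moved the median of all measured genes from -0.45 to 0.03 and that of the members to -0.82; it left 1 member higher and 9 lower, and turned the split of all genes from 696 higher and 1464 lower to 572 and 632. Of the 21 that fell, 8 were called under every limma setting tried: Cplx1, Cplx2, Rab31, Rab33a, Rab3b, Stx1a, Stxbp6 and Syt5. Sv2a, Bsn and Vamp1 were not called after quantile normalization or without the filter on low values. With the mean of all probes, Bsn and Vamp1 were not called either. Neither member that rose was called without the filter on low values, and without the second gland array 0 members were at least 4-fold higher.

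The same gland arrays were set against the ependyma, the ordinary lining of the ventricle. Here Sv2b, Stxbp5, Syp, Nsf, Snap29, Unc13d and Rab3c rose in the gland, and Stxbp6, Syt5, Cplx1, Rab36, Sytl5, Rab31, Unc13c, Syt17, Rab33a, Cplx2 and Vamp3 fell. These are 7 of 51 measured members higher by limma, where 7.25% of all genes were, and 11 lower, where 12.9% were; at 4-fold there were 6 higher (6.50% of all genes) and 11 lower (11.6%). Rab31, a Rab of the trans-Golgi and endosomes, read 6.09 and 4.92 in the gland, 44.0 in the ependyma, 35.2 and 33.2 in the subcommissural and subfornical organs and 51.2 in total brain, an 8.03-fold fall against the ependyma (limma adjusted p = 0.00032). The median difference of the measured members was -0.05 and that of all genes -0.11, and both changed sign after quantile normalization, to 0.13 and 0.03. Of the neuron markers 6 of 7 measured ones fell and none rose here too, while Eno2 read 78.6 in the ependyma, below both gland arrays. All 5 measured markers each of astrocytes, oligodendrocytes and motile cilia fell and 6 of 7 pinealocyte markers rose. Of 5 microglia markers 1 rose and 2 fell, and of 4 endothelial markers 1 fell and 0 rose. The part of these markers in the members' differences was not tested. Of the members that rose, Sv2b alone was called under every limma setting tried, and of those that fell Cplx1, Rab31, Rab36 and Syt5 were. Quantile normalization gave 4 higher and 10 lower, which were 28.6% higher among the calls in place of 38.9%. For Syp and Stxbp5 the call was lost without the filter on low values. The call of Nsf was lost there, with the floor at the 10th percentile and after quantile normalization. Unc13d and Rab3c were not called after quantile normalization, without the filter or with the filter at the 75th percentile. Snap29 was not called with the filter at the 75th percentile, nor Rab3c with an intensity trend in limma. With every other probe of the gene averaged in, the difference was 1.36 for Nsf, 0.98 for Stxbp5 and 1.37 for Snap29, and none of the 3 was called.

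**Figure D3:**
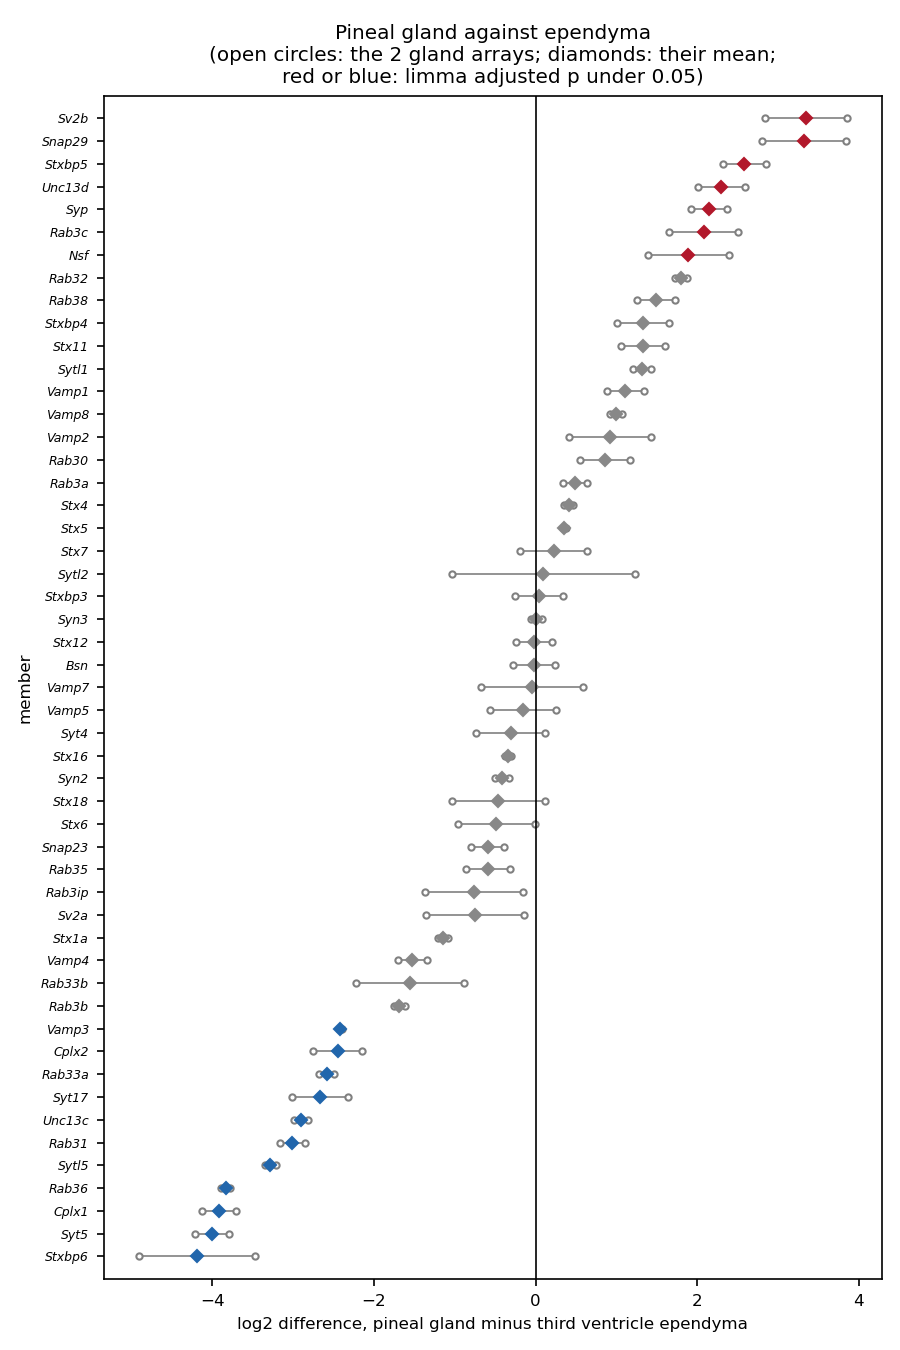
Log2 difference between the pineal gland and the third ventricle ependyma for the 51 measured members, in order of size: open circles are the 2 gland arrays, diamonds their mean, and red or blue marks a limma adjusted p under 0.05. The 7 red members at the top include Sv2b, Stxbp5, Syp and Nsf, and the 11 blue ones at the bottom include Cplx1, Cplx2 and Syt5.

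The other comparisons had 1 array on each side, so their differences have no replicate check and no test was made. In the subcommissural organ against total brain, several genes of the presynaptic machinery were low: Cplx1 was 79.5-fold, Vamp1 18.0-fold, Sv2a 17.1-fold, Bsn 20.7-fold, Syp 13.0-fold, Nsf 12.0-fold and Stx1a 10.2-fold lower. No member was at least 4-fold higher, where 8.62% of all measured genes were, and 22 of 54 were lower, where 14.9% were. After quantile normalization 3 were higher, Rab36, Snap23 and Vamp8, and 21 lower. Of 6 measured synaptotagmins 2 were at least 4-fold lower. Syt5, at 30.7 against 22.6, and Syt2, at 1.07 against 0.845, lay above total brain, and so did Unc13c. Stxbp6 was 21.2-fold lower, Rab32, a Rab of lysosome-related organelles, at least 16.3-fold and Rab38, its close relative, at least 14.2-fold. The median over the 54 members was -1.39 against -0.29 over all genes. Of 7 measured neuron markers 6 were at least 4-fold lower, among them Eno2 (11.6 against 340) and Thy1 (11.9 against 509). So were 5 of 5 oligodendrocyte, 3 of 5 microglia and 2 of 5 astrocyte markers, while 4 of 4 measured motile cilia markers were higher; the part of these markers was not tested.

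In the subfornical organ against total brain, Vamp5 was 5.90-fold, Vamp8 4.77-fold and Unc13d 4.04-fold higher, which made 3 of 53 measured members, where 7.19% of all genes were higher. There were 17 lower, where 9.63% of all genes were lower, led by Cplx1 (44.2-fold), Cplx2 (16.6-fold), Rab32 (at least 16.3-fold), Bsn (15.8-fold) and Stx1a (12.8-fold). Rab3b and Rab33a were above total brain by 1.19 and 0.51 on the log2 scale, short of 4-fold. Syn2, under the median here, was at least 6.38-fold lower. Vamp4, a SNARE of the trans-Golgi network, was 5.48-fold lower on the probe used, but its other probe lay on the opposite side. The median over the members was -1.02 against -0.20 over all genes, and all 7 measured neuron markers were at least 4-fold lower. At the same size 3 of 4 motile cilia, 2 of 6 astrocyte and 1 of 5 microglia markers were higher; the part of these markers was not tested.

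In the ependyma against total brain, Sytl5 was the 1 of 52 measured members that was higher, at least 4.06-fold, where 7.38% of all genes were. The 16 lower members (9.34% of all genes) were led by Vamp1 (12.7-fold), Cplx1 (11.0-fold), Stxbp6 (7.52-fold), Sytl2, an effector of Rab27 (6.58-fold), and Sv2b (6.32-fold). After quantile normalization 9 were lower, and all genes went from 672 higher and 850 lower to 778 and 598. Syp, at 30.9 against 81.3, and Nsf, at 18.8 against 70.2, stayed short of 4-fold. The median over the members was -1.36, against -0.41 over all genes. At least 4-fold lower were 6 of 7 measured neuron and 5 of 5 oligodendrocyte markers, and 4 of 5 motile cilia markers were higher; the part of these markers was not tested. The 4 comparisons with total brain share its single array, so they are not independent of each other.

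**Figure D4:**
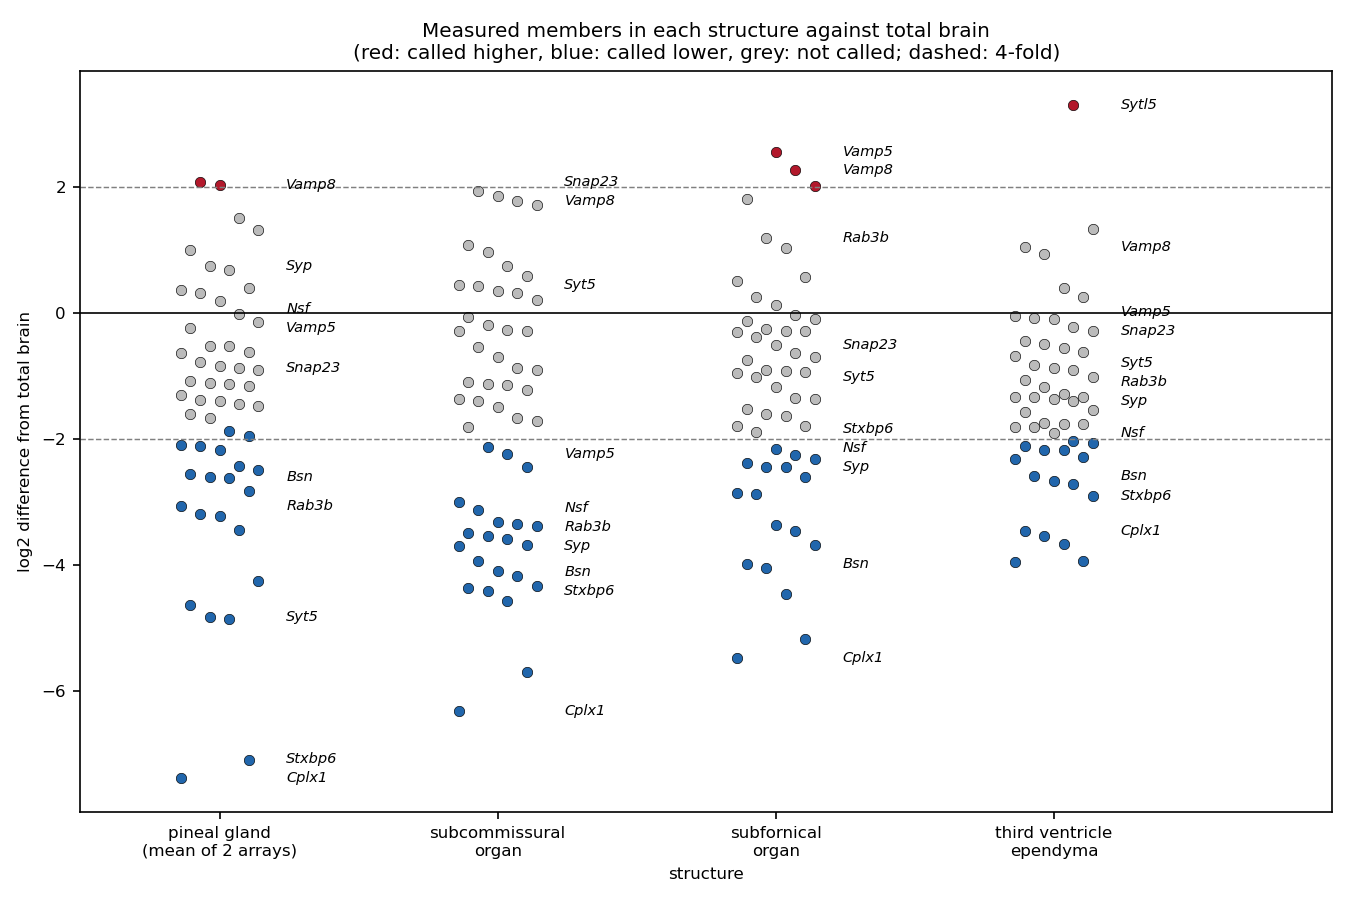
Log2 difference from total brain of the measured members (54, 54, 53 and 52) in each structure; red and blue mark calls, by limma for the pineal gland and at 4-fold (dashed lines) for the others, and all columns share the total brain array. Cplx1 lies at or near the bottom in the pineal gland, subcommissural organ and subfornical organ, and Syp and Nsf lie near 0 in the pineal gland and below -2 in both organs.

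Against the ependyma, which the labels place at a distance from either organ, the subcommissural organ had more Unc13c (5.61-fold), Sv2b (5.21-fold), Snap23 (4.67-fold), Rab30 (at least 4.46-fold) and Unc13d (at least 3.88-fold). It had less Rab38 (at least 10.1-fold), Cplx1 (7.22-fold), Syp and Rab3b (both 4.95-fold) and Vamp5 (4.47-fold). These were among 6 of 50 measured members at least 4-fold higher, where 4.91% of all genes were, and 9 lower, where 7.85% were. Both tissues carried motile cilia markers at similar sums, given above, while 4 of 7 measured neuron, 4 of 5 microglia (median -2.61) and 3 of 5 astrocyte markers (-2.04) were at least 4-fold lower in the organ and none of these was 4-fold higher. Grin1 lay above the ependyma, at 39.7 against 26.4. The part of these markers was not tested. The subfornical organ had more Unc13d (at least 12.6-fold), Rab33a (6.91-fold), Vamp5 (6.24-fold), Rab3b (5.92-fold) and Snap29 (at least 2.75-fold) than the ependyma. It had less Vamp4 (7.24-fold, again with its other probe on the opposite side), Cplx2 (4.74-fold), Rab38 (4.30-fold), Rab36 (4.20-fold) and Sytl5 (at least 4.06-fold). Here 6 of 50 members were higher, where 6.77% of all genes were, and 9 were lower, where 6.61% were. The summed oligodendrocyte markers were 1303 in the subfornical organ and 252 in the ependyma, with 5 of 5 at least 4-fold higher. Of the motile cilia markers 3 of 5 and of the neuron markers 1 of 7 were at least 4-fold lower. Of the microglia markers 1 of 5, Cd68 at 25.8 against 0.936, and of the astrocyte markers 1 of 6 were at least 4-fold higher. The part of these markers was not tested.

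Genes that work beside this machinery were taken from a list of 57 partners, 49 of them on the array. In the pineal gland against total brain, 8 of 37 measured partners (21.6%) rose by limma, where 7.67% of all genes rose, and 5 (13.5%) fell, close to the 16.1% of all genes. Mpp4, a scaffold of photoreceptor synapses, read 272 and 287 in the gland, 0.695 in the subcommissural organ, 0.536 in the subfornical organ, 4.37 in the ependyma and 0.305 in total brain, at least 266-fold above total brain (adjusted p = 5.3e-38). Cacna1f, the calcium channel of ribbon synapses, read 66.7 and 51.3 against 7.60 in total brain and from 4.71 to 6.46 in the rest (7.70-fold, adjusted p = 0.00042), and Slc17a7, a vesicular glutamate transporter, 14.0 and 12.3 against 3.13 (4.18-fold, adjusted p = 0.022). Cadps, which primes dense core vesicles, fell 15.0-fold, at 4.16 and 1.86 against 41.6, and Slc32a1, the vesicular transporter of GABA, and Ppfia3, a liprin of the active zone, were at least 6.98-fold and at least 5.29-fold lower. Against the ependyma 9 of 36 measured partners (25.0%, against 7.25% of all genes) rose in the gland and 3 fell (8.33%, against 12.9%). The dense core granule genes Chga, Chgb, Scg3 and Ptprn were 4 of those 9; Chga read 86.4 and 50.2 in the gland against 8.62 in the ependyma and 17.0 in total brain. In the subcommissural organ 0 of 33 partners were at least 4-fold above total brain (8.62% of all genes) and 15 below (45.5%, against 14.9%), led by Chgb (at least 23.3-fold), Slc17a6, another glutamate transporter (18.6-fold), and Napb, the neuronal attachment factor of Nsf (15.6-fold). In the subfornical organ 1 of 34 was above (7.19% of all genes) and 16 below (47.1%, against 9.63%), with Slc17a6 25.7-fold and Napb 14.6-fold lower. In the ependyma 3 of 38 were above (7.89%, against 7.38% of all genes), Mpp4 at least 4.16-fold, and 7 below (18.4%, against 9.34%). Against the ependyma, 2 of 33 partners were higher (6.06%, against 4.91% of all genes) and 7 lower (21.2%, against 7.85%) in the subcommissural organ. In the subfornical organ 0 of 35 were higher (6.77% of all genes) and 3 lower (8.57%, against 6.61%).

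The only measure of spread was the pair of pineal gland arrays. Over the 43 members at or above the pooled median in the gland, the median log2 difference, array 1 minus array 2, was 0.45, with an SD of the differences of 0.62, and 31 members (72.1%) were higher on array 1. All 8016 such genes gave 0.42, 0.64 and 77.6%. Among the members, 8 differed at least 2-fold between the arrays and 1 at least 4-fold, Sytl2 at 3.86 and 0.806. Syp at 159 and 117 and Vamp8 at 82.0 and 90.6 were closer than Nsf at 98.4 and 49.2 or Sv2b at 27.8 and 13.8.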

How the data were processed

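Intensities were used as deposited by the authors, 1 linear value per probe and array; scanner, background correction and scaling are not given in the sources used here. RNA of laser-cut tissue was amplified and read in 1 colour, per the labels' protocols. Complete values over the 6 arrays existed for 34963 of 35129 probes; 16865 had a single symbol in the platform annotation, 165 several and 18099 were not listed. A floor of 0.142 (the 5th percentile of all values) was set before the log2. Each of 12167 genes was represented by its brightest probe by mean log2. A gene was measured in a comparison when its higher side reached the pooled median of 1.05; where the lower side was under it, the fold is a bound against 1.05, written "at least". The gland's value is the mean log2 of its 2 arrays, which both had to lie on the same side for a 4-fold call.

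Comparisons of the pineal gland were tested with limma 3.58.1 in R 4.3.3 (lmFit and eBayes on all 6 arrays, 1 mean per tissue, two-sided, Benjamini-Hochberg adjusted p under 0.05 over all measured genes). Its 1 residual degree of freedom comes from the gland pair, and the lone array is assumed to vary like that pair. The moderated spread was the same for every gene, so a call was in effect a log2 difference of at least 1.82 against total brain and 1.85 against the ependyma. Other comparisons were called at 4-fold, without a test. The number of arrays limits precision.

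Members with fixed names were described, with the 5 members and 3 partners of largest difference per comparison and direction; members, lists and tests were chosen with earlier results of these data known. Genes named outside this rule were chosen after their values were seen. Promoters came from RefSeq, build GRCr8. Alternatives were quantile normalization, another floor, no filter, a stricter filter, the mean of all probes, omission of the other Rab proteins, omission of each gland array and an intensity trend in limma; 2 more were added after seeing the data.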

Additional observations from a re-analysis of the deposited data

Results flagged for a closer look

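Both results below are members called in opposite directions against total brain in 2 structures. Each rests on 1 array a side, the comparisons share the total brain array, and the difference between the structures was not tested. Unc13d was above total brain in the subfornical organ, by 2.01 on the log2 scale, and below it in the ependyma, at -2.11, where its value was under the pooled median. Vamp5 was below total brain in the subcommissural organ, at -2.24, and above it in the subfornical organ, by 2.56.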

How the results depend on the processing

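No called difference of a single member changed sign under any alternative tried. Median differences did after quantile normalization: against the ependyma in the pineal gland, that of the members went from -0.05 to 0.13 and that of all genes from -0.11 to 0.03, and that of all genes against total brain went from -0.45 to 0.03 in the pineal gland, -0.29 to 0.01 in the subcommissural organ and -0.20 to 0.06 in the subfornical organ. Counts of members that moved by more than 1.5 times are given here, and the cause was not tested except where fewer genes are measured under a stricter filter. After quantile normalization, pineal gland against total brain gave 1 higher (2 in the fit reported) and 9 lower (21) by limma, pineal gland against ependyma 4 higher (7), subcommissural organ against total brain 3 higher (0), and ependyma against total brain 9 lower (16). Without the filter on low values, limma gave 0 higher and 9 lower against total brain, and 2 higher (7) and 7 lower (11) against the ependyma. With the filter at the 75th percentile, pineal gland against total brain gave 1 higher by limma and 1 higher at 4-fold; pineal gland against ependyma gave 7 lower by limma, and 3 higher (6) and 6 lower (11) at 4-fold. Under that filter the subcommissural organ against ependyma gave 3 higher (6) and 5 lower (9), the subfornical organ against ependyma 5 lower (9), and ependyma against total brain 0 higher (1). An intensity trend in limma gave 1 higher against total brain, and the mean of all probes 9 lower (16) for ependyma against total brain. With values under the median set at it, added after seeing the data, 4-fold counts were 1 higher (2) against total brain and 3 higher (6) against the ependyma for the pineal gland. Leaving out either gland array gave 0 to 2 higher and 15 to 22 lower at 4-fold against total brain, and 4 to 7 higher and 11 to 12 lower against the ependyma; limma has no spread to use then. Choosing the brightest probe by linear mean, also added after seeing the data, changed none of 130 called differences. No paired analysis was possible because the groups compared share fewer than 2 replicate numbers. Low probes set the limit: 20 members were near background on every array on the probe used, which does not show absence of the transcript.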
